A study of Mus musculus with 12 samples.

Results

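Linker histone H1 is encoded in the mouse by a small gene family, and 7 of its genes were followed here across 4 genotypes of mouse embryonic stem cells (mESCs): Hist1h1a, Hist1h1b, Hist1h1c, Hist1h1d, Hist1h1e, H1f0 and H1fx. The genes were taken by symbol, 7 of the 23412 gene names in the count tables. RNA was collected from male v6.5 mESCs grown on gelatin, 48 hours into culture, enriched for poly-A transcripts and sequenced in 12 bulk libraries, 3 for each genotype. The study asked how loss of the nucleosome-binding proteins HMGN1 and HMGN2 alters transcription in these cells. WT mESCs were unedited. The Hmgn1-/- line carried a 1-bp deletion in both copies of Hmgn1, in exon 3, and the Hmgn2-/- line a 1-bp insertion in both copies of Hmgn2, in exon 4, each of which shifts the reading frame. The Hmgn1-/-Hmgn2-/- line (the double knockout) was made from the Hmgn2-/- line by editing Hmgn1 with the same guide, so that it carries both edits and shares its history with that parent. Each knockout line was grown up from single cells selected after CRISPR-Cas9 editing, and the 3 libraries of a genotype are repeats of a line: the p-values below measure the spread between libraries of these lines, not between independently edited clones.

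Linker histones bind where DNA enters and leaves the nucleosome and help to fold the nucleosome array, and HMGN proteins bind the same particle and are known to compete with H1 for it. Most H1 genes lie in a histone cluster, are transcribed mainly in S phase and give mRNAs that end in a conserved stem-loop in place of a poly-A tail, whereas H1f0 and H1fx lie elsewhere, are not tied to replication and give polyadenylated mRNAs. Poly-A enrichment therefore keeps the mRNAs of the latter pair and loses most of the stem-loop mRNAs, so the levels below are levels of poly-A RNA and not of H1 protein.

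Library totals ran from 17337908 counts (Hmgn2-/- replicate 3) to 31448468 counts (WT replicate 1), and 3 counts, taken as the floor, corresponded to 0.0954 to 0.173 counts per 1000000 counts of the library (CPM). This floor covers counting error only, since the reads carry no molecular identifiers. Hmgn2-/- replicate 3 differed more from the other libraries of its genotype than any other replicate did, and the count of called H1 genes in Hmgn2-/- against WT is given with and without it below. The level of Hmgn1, in CPM scaled by TMM (trimmed mean of M values) factors, was 622 ± 35.1 (SD, n = 3 libraries, as for every mean below) in WT, 140 ± 1.77 in Hmgn1-/-, 581 ± 51.4 in Hmgn2-/- and 21.0 ± 0.929 in the double knockout. The level of Hmgn2 on the same scale was 126 ± 9.50 in WT, 109 ± 3.84 in Hmgn1-/-, 53.1 ± 1.92 in Hmgn2-/- and 53.0 ± 2.16 in the double knockout. Each edited transcript was thus lower in the lines that carry its edit, though a frameshift leaves a transcript that can still be counted.

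The 3′ end of each H1 gene was read from the annotation first, because it decides how far a poly-A library can sample the gene. In GENCODE vM21, on build GRCm38 (mm10), the transcripts of Hist1h1c, Hist1h1d and Hist1h1e each hold the histone stem-loop, beginning 24, 31 and 40 bases after the coding end. In each of these genes the stem-loop reads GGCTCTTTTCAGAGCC on the transcript strand. The search used a looser pattern, with a fixed base at some positions and a choice of bases at others. A match to that pattern lies after the coding end in 62 of 21877 protein-coding genes (0.283%) and in 42 of 61 core histone genes (68.9%). Windows around the stem-loops lie at chr13:23739505-23739534 (+) for Hist1h1c, chr13:23555780-23555809 (+) for Hist1h1d and chr13:23621775-23621804 (-) for Hist1h1e. They are shown with the matched bases in capitals because the stem-loops mark the end that poly-A enrichment misses.
Hist1h1c stem-loop: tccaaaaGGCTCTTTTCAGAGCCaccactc
Hist1h1d stem-loop: ctcaaacGGCTCTTTTCAGAGCCacccaca
Hist1h1e stem-loop: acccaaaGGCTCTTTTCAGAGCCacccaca

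RefSeq ends these 3 genes 4 or 5 bases after the stem-loop, whereas GENCODE carries the transcripts on for 840 bases in Hist1h1c, 4884 bases in Hist1h1d and 1153 bases in Hist1h1e. The longer Hist1h1c transcript closes with a poly-A signal, AATAAA, 26 bases before its end, inside the window chr13:23740330-23740359 (+). H1f0 and H1fx carry no stem-loop and hold AATAAA 22 and 21 bases before their ends, inside the windows chr15:79030471-79030500 (+) and chr6:87980424-87980453 (-). These windows are shown, with the signal in capitals, because they give the polyadenylated ends of the 3 H1 genes with the highest levels in these libraries.
Hist1h1c poly-A signal: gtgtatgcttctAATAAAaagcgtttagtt
H1f0 poly-A signal: ttaaaactttaaAATAAAactggaaaggaa
H1fx poly-A signal: ttcctggggcgcAATAAAcggttccaacct
AATAAA or ATTAAA, on the transcript strand, lies in the last 50 bases of 16713 of 21877 protein-coding genes (76.4%) and of 3 of the 7 H1 genes. The annotated transcript of Hist1h1a stops inside the loop and that of Hist1h1b at the coding end, so neither shows a complete 3′ end, and absence of these letters says nothing more about them.

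**Figure D1:**
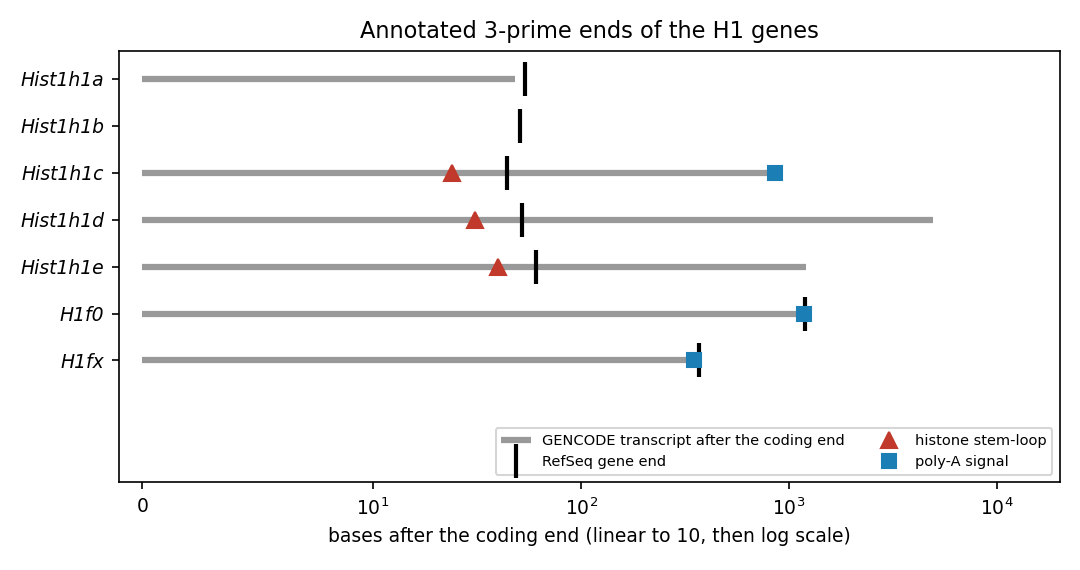
Distance from the coding end, in bases (linear to 10, then log scale), of the stem-loop, the poly-A signal, the RefSeq gene end and the GENCODE transcript end of each H1 gene. In Hist1h1c, Hist1h1d and Hist1h1e the RefSeq end lies just past the stem-loop and the GENCODE transcript runs on.

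Levels were compared between genes as TMM-scaled CPM per kb of RefSeq gene length. H1fx, a replication-independent H1 whose gene lies on chr6:87980421-87981482 (-), had the highest level of the 7 genes in WT, 74.3 ± 8.84 per kb. H1f0, which encodes H1.0, known for its accumulation in cells that leave the cycle, followed at 24.0 ± 3.32 per kb and lies on chr15:79028212-79030504 (+). Hist1h1c was the most abundant of the clustered genes at 7.04 ± 1.93 per kb, from chr13:23738807-23739531 (+). Hist1h1a stood at 1.86 ± 0.456, Hist1h1d at 0.934 ± 0.199, Hist1h1e at 0.657 ± 0.176 and Hist1h1b at 0.382 ± 0.208 per kb in WT. The WT libraries of H1fx, H1f0, Hist1h1c and Hist1h1a kept this order with no overlap, while Hist1h1d overlapped Hist1h1e and Hist1h1e overlapped Hist1h1b. In every knockout H1fx, H1f0 and Hist1h1c kept the first places without overlap, and the levels of the other 4 genes overlapped each neighbour in the order. In Hmgn2-/- the mean of Hist1h1e, 1.03 ± 0.598 per kb, came before that of Hist1h1a, 1.01 ± 0.371, a gap far inside the spread. The places below Hist1h1c, and its gap from Hist1h1a in WT, depend on the length used. With the longest GENCODE transcript in place of the RefSeq length, Hist1h1c and Hist1h1a overlapped in WT at 3.27 ± 0.897 and 1.87 ± 0.459 per kb. Hist1h1b then followed at 0.409 ± 0.222, before Hist1h1e at 0.266 ± 0.0714 and Hist1h1d at 0.0976 ± 0.0208, and the 7 genes took this order by mean in all 4 genotypes.

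H1fx alone made up 68.0% of the summed H1 level per kb in WT, 69.8% in Hmgn1-/-, 70.7% in Hmgn2-/- and 69.3% in the double knockout. H1f0 made up 21.9% in WT, 22.9% in Hmgn1-/-, 21.8% in Hmgn2-/- and 23.3% in the double knockout. The 5 clustered genes together held 10.1% ± 2.27 of the summed level in WT, 7.29% ± 0.786 in Hmgn1-/-, 7.59% ± 1.11 in Hmgn2-/- and 7.37% ± 1.11 in the double knockout, and these ranges overlapped between WT and each knockout. These are shares of poly-A RNA on 1 choice of gene length, and they depend on that length: with the longest GENCODE transcript in its place, 18 of the 28 shares moved by more than their SD. The clustered genes then held 6.15% ± 1.24 in WT, 4.24% ± 0.473 in Hmgn1-/-, 4.44% ± 0.765 in Hmgn2-/- and 4.29% ± 0.722 in the double knockout, and the ranges of WT and Hmgn1-/- no longer overlapped.

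**Figure D2:**
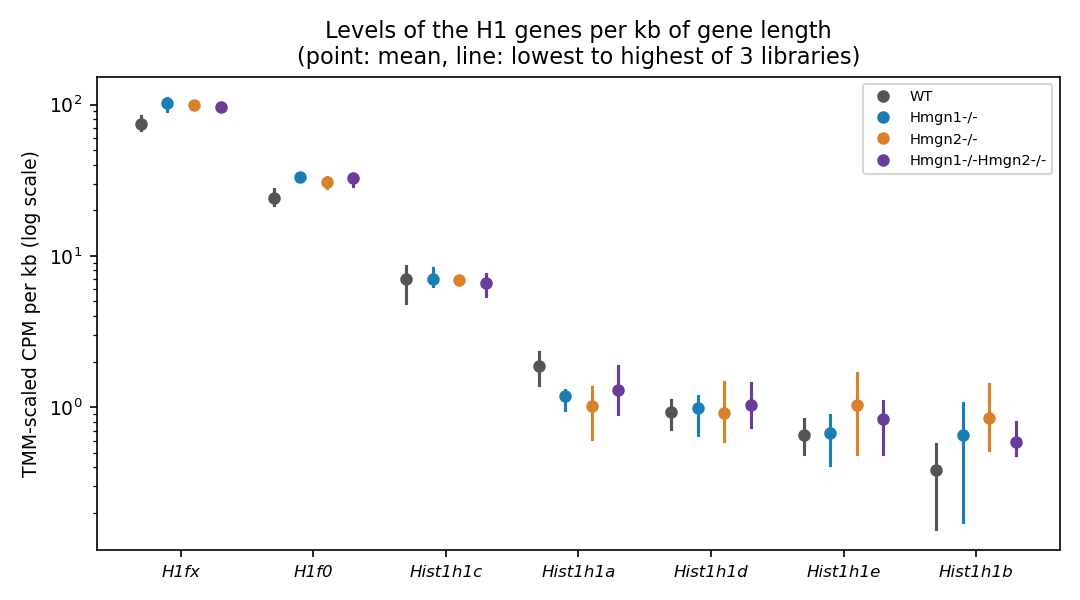
Level of each H1 gene in TMM-scaled CPM per kb of RefSeq gene length (log scale), by genotype, with points for the mean and lines from the lowest to the highest of 3 libraries. H1fx, H1f0 and Hist1h1c take the first 3 places in all 4 genotypes, and the other 4 genes overlap in the knockouts; the order of these 4 differs with the longest GENCODE transcript as length.

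The differences that passed the test fell on H1f0 and H1fx. In TMM-scaled CPM, H1f0 measured 63.7, 49.5 and 52.0 in WT replicates 1 to 3 and 77.3, 75.5 and 75.9 in Hmgn1-/-. In Hmgn2-/- its level was 64.5, 70.9 and 75.7, and in the double knockout 66.2, 78.9 and 79.4. All 9 knockout libraries lay above all 3 WT libraries, narrowly so for Hmgn2-/- replicate 1 beside WT replicate 1. H1fx measured 89.5, 75.5 and 71.7 in WT and 110.2, 117 and 96.9 in Hmgn1-/-. In Hmgn2-/- the level of H1fx was 104, 103 and 110.2, and in the double knockout 104, 106 and 99.0. Again no knockout library overlapped WT, and WT replicate 1 was the highest of the WT libraries for both genes. The share of all genes with no such overlap was not counted. In bulk RNA, fewer cells of a type and less RNA per cell cannot be told apart.

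**Figure D3:**
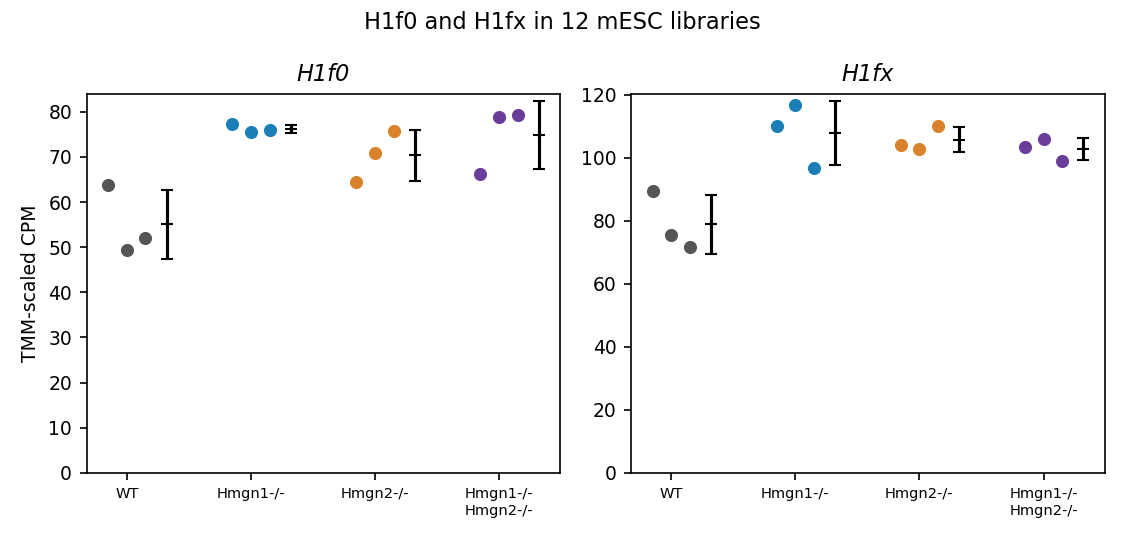
TMM-scaled CPM of H1f0 and H1fx in the 12 libraries by genotype, points for libraries and bars for the mean and SD of 3. All WT points lie below all knockout points for both genes, the closest being 63.7 in WT and 64.5 in Hmgn2-/- for H1f0.

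The comparison of Hmgn1-/- with WT asks what loss of HMGN1 does to H1 transcripts, and both replication-independent genes rose. H1f0 rose 1.38-fold, a log2 fold change (FC) of 0.46 (SE 0.0842, 95% interval 0.28 to 0.64), with an adjusted p of 0.00102 by the edgeR quasi-likelihood test with Benjamini-Hochberg adjustment over all genes tested. H1fx rose 1.36-fold, a log2 FC of 0.44 (SE 0.0875, 95% interval 0.26 to 0.63; adjusted p of 0.00172 by the same edgeR test). All 7 H1 genes passed the filter on low counts, and these 2 were called at an adjusted p under 0.01, both higher. Of all 13917 genes tested, 17.3% were called, 7.28% higher and 10.1% lower. No H1 gene was called lower by edgeR, against 1 (Hist1h1a) lower at an unadjusted p under 0.05 and 0 by DESeq2. With the study's limit of a log2 FC of 1 or more in size as well, 0 H1 genes were called by edgeR and 0 by DESeq2, beside 5.98% of all genes, and at an unadjusted p under 0.05 without that limit 3 were. The median log2 FC was 0.05 over the 7 genes and 0.00 over all genes tested. Without Hmgn1-/- replicate 1 or 2, only H1f0 was called.

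Loss of HMGN2 was set against WT in the same way, with the same WT libraries. H1fx rose 1.34-fold in Hmgn2-/-, a log2 FC of 0.42 (SE 0.0947, 95% interval 0.21 to 0.63), with an adjusted p of 0.00978 by the edgeR quasi-likelihood test with Benjamini-Hochberg adjustment, close to the limit. H1f0 had a log2 FC of 0.35 (SE 0.109, 95% interval 0.11 to 0.59; adjusted p of 0.0443 by edgeR) and was not called, though all 3 of its Hmgn2-/- libraries lay above WT. Thus 1 of 7 H1 genes was called, higher, against 9.97% of the 14047 genes tested, 3.30% higher and 6.66% lower. No H1 gene was called lower by edgeR, against 1 (Hist1h1a) lower at an unadjusted p under 0.05 and 0 by DESeq2. Past the fold limit there were 0 H1 genes by edgeR and 0 by DESeq2, beside 5.15% of all genes, and 3 H1 genes had an unadjusted p under 0.05 without that limit. The median log2 FC was 0.35 over the 7 genes and 0.01 over all genes tested. The call of H1fx held without Hmgn2-/- replicate 3 and without WT replicate 1, and was lost, leaving 0 called, without WT replicate 2, WT replicate 3, Hmgn2-/- replicate 1 or Hmgn2-/- replicate 2. The call was also lost with upper quartile factors, with a minimum of 10 counts in every library and with replicate number as a block. The log2 FC of H1fx under these settings was 0.41, 0.41 and 0.43.

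With both HMGN genes edited, H1f0 rose 1.35-fold against WT, a log2 FC of 0.43 (SE 0.0968, 95% interval 0.22 to 0.64), with an adjusted p of 0.00412 by the edgeR quasi-likelihood test with Benjamini-Hochberg adjustment. H1fx rose 1.30-fold, a log2 FC of 0.37 (SE 0.0787, 95% interval 0.20 to 0.54; adjusted p of 0.00267 by edgeR). These were the 2 H1 genes called of 7, both higher, beside 18.0% of the 14128 genes tested, 7.79% higher and 10.2% lower. No H1 gene was lower by edgeR at this limit, 0 at an unadjusted p under 0.05 and 0 by DESeq2. Past the fold limit there were again 0 by edgeR and 0 by DESeq2, beside 6.30% of all genes, while 2 H1 genes had an unadjusted p under 0.05 without it. The median log2 FC was 0.29 over the 7 genes and 0.00 over all genes tested. Single libraries decided these calls: 0 H1 genes were called without WT replicate 2, WT replicate 3 or double knockout replicate 2, only H1f0 without double knockout replicate 1 and only H1fx without double knockout replicate 3. The 3 comparisons share the WT libraries, so their rises are not independent of each other.

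**Figure D4:**
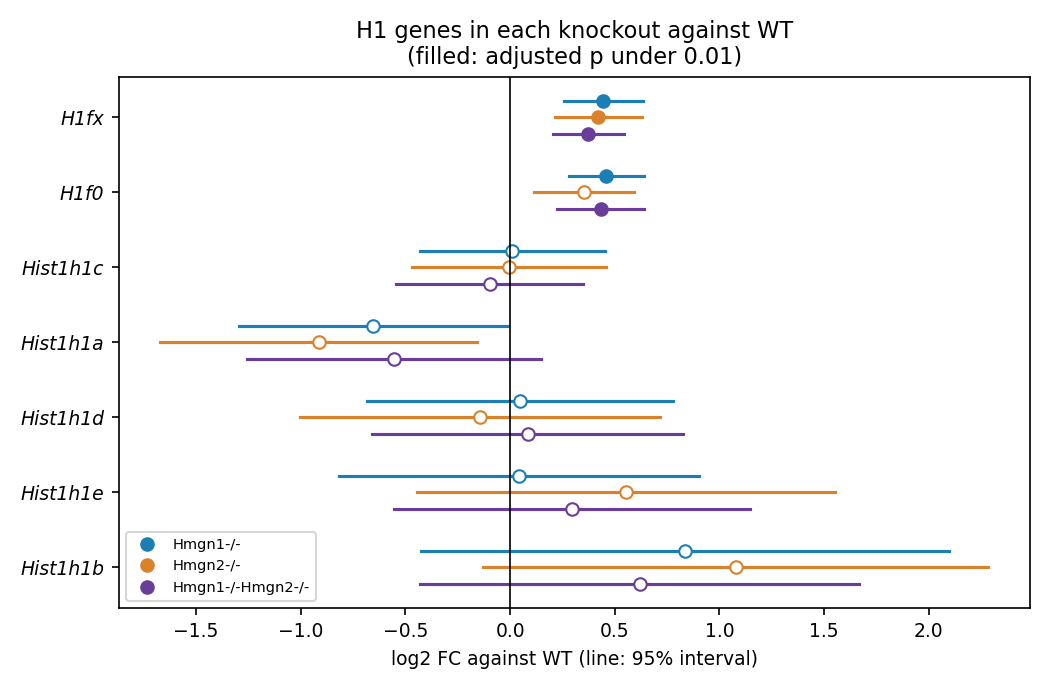
Log2 FC of each H1 gene in each knockout against WT, with its 95% interval; filled points passed an adjusted p under 0.01. H1f0 and H1fx lie between 0.35 and 0.46 in all 3 knockouts, and the intervals of the clustered genes are wide.

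Between the knockouts the H1 genes were not told apart. In the double knockout against Hmgn1-/-, which asks what loss of HMGN2 adds, 0 of 7 H1 genes were called by edgeR, with 0 at an unadjusted p under 0.05 and 0 by DESeq2, beside 1.09% of 13710 genes. In the double knockout against its Hmgn2-/- parent, 0 of 7 were called by edgeR, 0 at an unadjusted p under 0.05 and 0 by DESeq2, beside 0.0434% of 13816 genes. In Hmgn2-/- against Hmgn1-/-, 0 of 7 were called by edgeR, 0 at an unadjusted p under 0.05 and 0 by DESeq2, beside 0.352% of 13648 genes. The medians over the 7 genes were -0.03, -0.04 and -0.03 on the log2 scale in these 3 comparisons, with 0.00 over all genes in each. For H1f0 the 95% intervals of these log2 differences were -0.18 to 0.13, -0.13 to 0.30 and -0.29 to 0.07. For H1fx they were -0.22 to 0.08, -0.20 to 0.11 and -0.21 to 0.16, so a further difference as large as their log2 FC over WT, 0.35 to 0.46, lies outside these intervals.

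Whether loss of HMGN1 acts differently with and without HMGN2 was tested as a departure from additivity on the log2 scale. Hmgn1 was edited separately in each background, so background and line cannot be told apart. H1fx departed by -0.48 (SE 0.120, 95% interval -0.74 to -0.23), with an adjusted p of 0.0142 by the edgeR quasi-likelihood test with Benjamini-Hochberg adjustment, which misses the limit. H1f0 departed by -0.37 (SE 0.136; adjusted p of 0.0888 by edgeR). No H1 gene was called by edgeR (0 of 7), against 2 at an unadjusted p under 0.05 and 1 (H1fx) by DESeq2, beside 6.32% of the 14323 genes tested. H1fx was called by edgeR without WT replicate 1, without Hmgn1-/- replicate 3, with no filter on low counts and with replicate number as a block. The median departure was -0.29 over the 7 genes and -0.01 over all genes.

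Summed over the 7 genes, the H1 level per kb was 121, 104 and 102 in the WT libraries and 148, 153 and 135 in Hmgn1-/-. It was 135.0, 138 and 149.9 in Hmgn2-/- and 135, 146 and 139 in the double knockout. All knockout sums exceeded all WT sums, and H1fx and H1f0 supplied most of each. The means were 109 ± 10.5 in WT, 145 ± 9.12 in Hmgn1-/-, 141 ± 7.84 in Hmgn2-/- and 139.8 ± 5.78 in the double knockout, 1.33, 1.29 and 1.28 times WT. The sum is a description and was given no test.

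The 5 clustered H1 genes encode the main replication-dependent H1 subtypes and lie on chromosome 13. Hist1h1c, with 88 to 179 counts per library, measured 3.53, 5.60 and 6.20 TMM-scaled CPM in WT and 4.76, 4.59 and 6.02 in Hmgn1-/-. Its level was 4.73, 5.19 and 5.23 in Hmgn2-/- and 3.94, 4.88 and 5.49 in the double knockout. All knockout values of Hist1h1c fell within the WT range. The log2 FC of Hist1h1c against WT was 0.01 in Hmgn1-/- (95% interval -0.43 to 0.45), -0.01 in Hmgn2-/- (-0.47 to 0.46) and -0.10 in the double knockout (-0.54 to 0.35), none of them called.

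Hist1h1a, at chr13:23763668-23764412 (+), had 12 to 55 counts per library. Its level was 1.72, 1.40 and 1.04 TMM-scaled CPM in WT, 0.961, 0.717 and 0.965 in Hmgn1-/-, 0.462, 0.795 and 1.01 in Hmgn2-/- and 0.673, 1.40 and 0.839 in the double knockout. All Hmgn1-/- and Hmgn2-/- libraries of Hist1h1a lay below all WT libraries, and the double knockout overlapped WT. How often libraries of other genes part in this way was not counted. No test was passed: the log2 FC was -0.65 in Hmgn1-/- (SE 0.298, adjusted p of 0.122 by edgeR), -0.91 in Hmgn2-/- (SE 0.344, adjusted p of 0.0916) and -0.55 in the double knockout (SE 0.326, adjusted p of 0.231).

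Hist1h1d, at chr13:23555032-23555807 (+), had 10 to 25 counts per library and log2 FC against WT of 0.05, -0.14 and 0.08 in Hmgn1-/-, Hmgn2-/- and the double knockout. Hist1h1e, at chr13:23621777-23622558 (-), had 7 to 22 counts and log2 FC of 0.04, 0.55 and 0.29. Hist1h1b, at chr13:21779832-21780625 (-), had 3 to 22 counts and log2 FC of 0.84, 1.08 and 0.62. All 3 genes overlapped WT in every knockout and none was called. At this depth the 95% intervals of Hist1h1b reached from -0.42 to 2.10 in Hmgn1-/-, so changes larger than those of H1f0 and H1fx were not detectable in it. Hist1h1c, Hist1h1d and Hist1h1e share 80.8% to 83.9% of their aligned coding bases, with identical runs of 122 to 149 bases, and how reads over such runs were assigned was not tested. The coding sequences of H1f0 and H1fx share 49.6% of aligned bases with each other and no identical run above 10 bases.

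**Figure D5:**
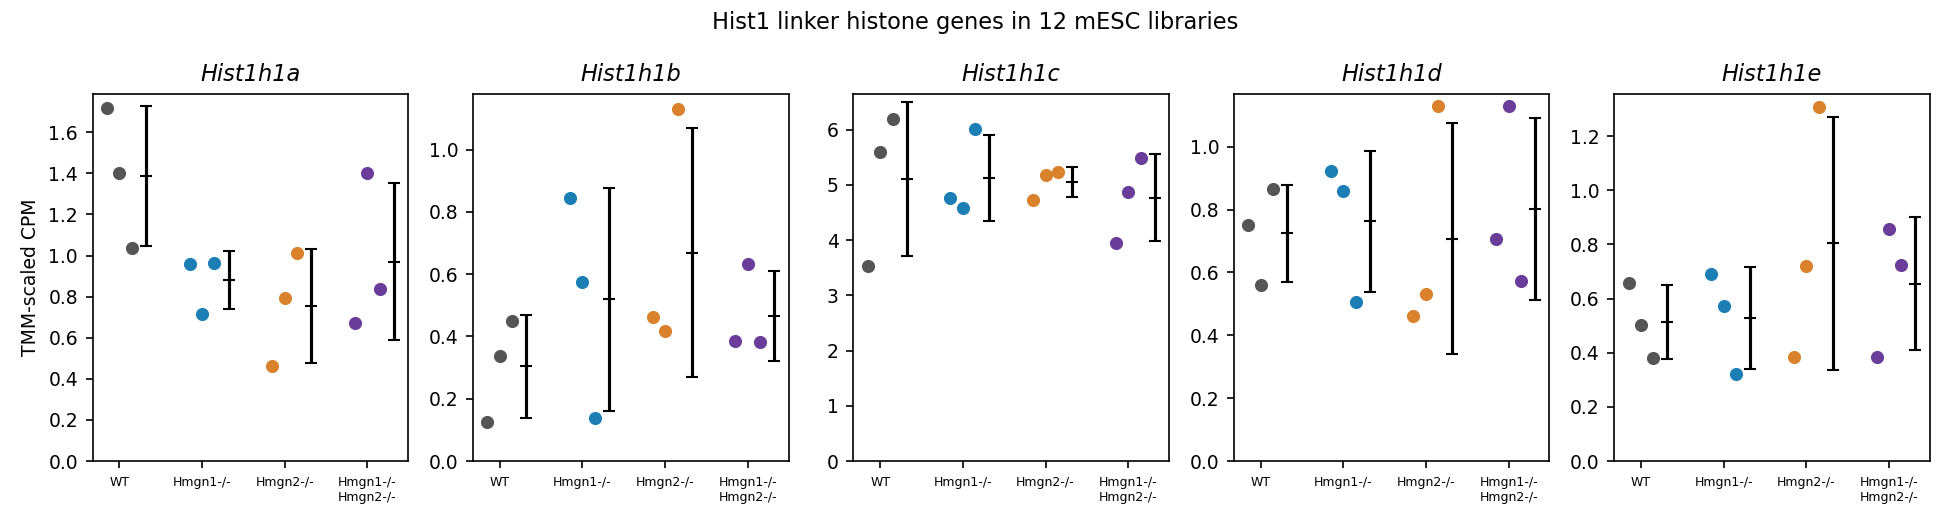
TMM-scaled CPM of the 5 clustered H1 genes in the 12 libraries by genotype, points for libraries and bars for the mean and SD of 3, each panel on its own axis from 0. Hist1h1a in Hmgn1-/- and Hmgn2-/- lies below its WT points, and the other genes overlap WT throughout.

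H1 genes known from germ cells were at or near the floor. Hist1h1t, of spermatocytes, had 0 to 7 counts per library and 34 in all 12. H1foo, of oocytes, had 0 counts in 295894018, which allows up to 0.0101 CPM over the pooled libraries. The testis genes H1fnt and Hils1 had 3 and 5 counts in all. None of these 4 genes passed the filter on low counts in any comparison, so 0 were tested.

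H1f0 and H1fx rose together in Hmgn1-/- and the double knockout, and their promoters are shown beside that of Hist1h1c, which was not called. The windows run from 250 bases before to 50 after the RefSeq start on GRCm38.p6, found for 7 of 7 H1 genes by gene ID: chr15:79027962-79028261 (+) for H1f0, chr6:87981433-87981732 (-) for H1fx and chr13:23738557-23738856 (+) for Hist1h1c. Capitals mark matches to GGGCGG (GC box, on either strand) in the first pair, and to AAACACA (the H1 box) and CCAAT in Hist1h1c. The start of H1f0 in GENCODE lies further into the gene, at base 79028450, and that of H1fx lies inside the printed window, at base 87981637, so that its GC box, 44 bases before the RefSeq start, falls within the GENCODE transcript.
H1f0 promoter: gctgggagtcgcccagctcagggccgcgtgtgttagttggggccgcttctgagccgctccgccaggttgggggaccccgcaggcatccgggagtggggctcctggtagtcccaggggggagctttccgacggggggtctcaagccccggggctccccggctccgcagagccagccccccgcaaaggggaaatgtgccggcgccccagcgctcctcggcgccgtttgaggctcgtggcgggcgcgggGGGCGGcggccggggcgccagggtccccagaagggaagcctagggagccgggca
H1fx promoter: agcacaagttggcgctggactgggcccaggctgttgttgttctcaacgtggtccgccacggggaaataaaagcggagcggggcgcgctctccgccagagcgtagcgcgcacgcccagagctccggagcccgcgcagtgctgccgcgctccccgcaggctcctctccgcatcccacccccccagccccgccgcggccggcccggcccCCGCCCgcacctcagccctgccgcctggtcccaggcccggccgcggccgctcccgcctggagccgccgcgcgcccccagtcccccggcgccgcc
Hist1h1c promoter: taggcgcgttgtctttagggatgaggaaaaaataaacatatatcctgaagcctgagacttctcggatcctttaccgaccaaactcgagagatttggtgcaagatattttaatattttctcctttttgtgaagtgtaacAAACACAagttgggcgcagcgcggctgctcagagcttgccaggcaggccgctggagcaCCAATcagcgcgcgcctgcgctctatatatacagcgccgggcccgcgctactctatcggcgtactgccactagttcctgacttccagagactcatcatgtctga
Each motif was searched on both strands of the 300 bases. AAACACA lies in 4 of 7 H1 promoters (Hist1h1b, Hist1h1c, Hist1h1d and Hist1h1e), 112 to 122 bases before the start, and in 7.18% of all 32851 promoters. CCAAT lies in all 5 clustered genes and in neither H1f0 nor H1fx, and in 37.4% of all promoters. TATAAA lies in Hist1h1a, Hist1h1b, Hist1h1d and Hist1h1e and in 13.6% of all promoters. GGGCGG lies in H1f0, H1fx, Hist1h1a, Hist1h1b and Hist1h1e and in 35.7% of all promoters. GC content was 75% in the H1f0 window and 77.7% in that of H1fx, 45.7% to 54.3% in the clustered genes and 52.7% at the median of all promoters. A match describes letters in a window and shows no binding.

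The genes nearest to H1f0 did not pass the test with it. Triobp, 22343 bp away, had log2 FC against WT of 0.02, -0.03 and -0.04 in Hmgn1-/-, Hmgn2-/- and the double knockout, and Gcat, 370 bp away, 0.13, 0.10 and 0.00, none called. Beside H1fx, 8430410A17Rik (Hmces in RefSeq), 43802 bp away, rose in all 3 knockouts with log2 FC of 0.63, 0.61 and 0.52. Gm5577, 201 bp from H1fx in RefSeq and overlapping it on the other strand in GENCODE, had log2 FC of 0.74, 0.42 and 0.41, none called. Since the strand setting of the counting is not given, reads of H1fx could be counted for Gm5577, counted the other way round or dropped, and this was not tested. The level of Gm5577 was 1.79 ± 0.482 TMM-scaled CPM in WT. Around the cluster, Hfe rose in Hmgn1-/- (log2 FC 1.74) and the double knockout (1.62) and was not called in Hmgn2-/- (1.26), while Lrrc16a, Zkscan8, Zfp184 and Btn2a2 were not called in any knockout against WT.

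By the root mean square (RMS) difference of centred log2 TMM-scaled CPM over the 12 libraries, among 11552 genes, the genes most like H1fx were Nt5dc2 (0.0559), Slc1a5 (0.0585) and Prps1 (0.0603). Those most like H1f0 were Ccdc106 (0.0803), Setd6 (0.0827) and Zfp775 (0.0829). H1f0 and H1fx themselves differed by 0.111, and 57 genes were nearer to H1f0 and 180 nearer to H1fx than this. Their own RMS about the mean was 0.220 for H1f0 and 0.207 for H1fx. Hist1h1c was most like Bcam (0.115), Sfn (0.127) and Hbegf (0.130). For the low-count genes the nearest were Prr19 (0.276), Cadm4 and Tcl1 for Hist1h1a, and Rn45s (0.215), Lars2 and Unc13d for Hist1h1d. They were Nuggc (0.354), Syt3 and Ccdc155 for Hist1h1e, and Bcan (0.580), Nuggc and Cux2 for Hist1h1b. The own RMS about the mean was 0.226 for Hist1h1c, 0.492 for Hist1h1a and 0.424 for Hist1h1d. It was 0.555 for Hist1h1e and 0.857 for Hist1h1b.

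Genes that make or handle histones were read beside the H1 genes, with levels per kb of GENCODE transcript and counts in Hmgn1-/-, Hmgn2-/- and the double knockout against WT in that order. Of all genes tested in these comparisons, 7.28%, 3.30% and 7.79% were called higher, 10.1%, 6.66% and 10.2% lower, and 17.3%, 9.97% and 18.0% in either direction, and each list's counts are to be read against these shares. Of 14 genes for the histone mRNA 3′ end and the histone locus body, 0, 0 and 1 rose and 0 fell by edgeR, with the same counts by DESeq2, and 4, 3 and 5 were higher and 0 lower at an unadjusted p under 0.05. The 1 was Eri1, the exonuclease that trims histone mRNA, with a log2 FC of 0.25 in the double knockout. Median log2 FC over these 14 genes were 0.07, 0.10 and 0.05, beside 0.00, 0.01 and 0.00 over all genes tested, and Srrt, the most abundant per kb, was not called. Of 17 S-phase genes, 1, 0 and 1 rose and 0 fell by edgeR, 1, 1 and 1 rose and 0 fell by DESeq2, and at an unadjusted p under 0.05 there were 4, 2 and 4 higher and 2, 0 and 1 lower. The riser was the helicase subunit gene Mcm5, with a log2 FC of 0.28 in Hmgn1-/- and 0.24 in the double knockout. The S-phase medians were 0.02, 0.05 and 0.01, and Pcna, the most abundant per kb, was not called. Of 9 H1 chaperone and import genes 0 were called in any knockout by edgeR or by DESeq2 and 1, 0 and 0 had an unadjusted p under 0.05, with medians of -0.03, 0.01 and 0.02 and Ptma, an H1-binding acidic protein gene, the most abundant per kb.

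Among 9 HMG genes, 1, 0 and 1 rose and 3, 2 and 3 fell by edgeR, the edited genes among the fallers, beside 17.3%, 9.97% and 18.0% of all genes called in either direction, and 1, 1 and 1 rose and 3, 2 and 4 fell by DESeq2. At an unadjusted p under 0.05, 2, 1 and 2 were higher and 5, 3 and 4 lower, with medians over the list of -0.25, -0.17 and -0.38 on the log2 scale. The riser was Hmgb2, the most abundant per kb, with a log2 FC of 0.38 in Hmgn1-/- and 0.37 in the double knockout. Besides the edited genes, Hmga2 fell in all 3 knockouts (log2 FC -2.09, -1.83 and -1.76) and Hmgn5 in Hmgn1-/- (-0.51). Of 7 other genes for proteins of linker DNA, 0, 0 and 1 rose and 0 fell by edgeR, beside 7.28%, 3.30% and 7.79% of all genes called higher, 1, 0 and 2 rose and 0 fell by DESeq2, and 2, 2 and 2 were higher and 0 lower at an unadjusted p under 0.05. The 1 was the pioneer factor gene Foxa2 in the double knockout (log2 FC 2.03), also counted among the primitive endoderm markers, and the medians were 0.09, 0.09 and 0.11. Parp1, the most abundant of these per kb, was not called.

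Core histone genes were read by kind. Of 8 replication-independent core histone genes 2, 2 and 2 rose and 0, 0 and 1 fell by edgeR and by DESeq2, beside 17.3%, 9.97% and 18.0% of all genes called in either direction. At an unadjusted p under 0.05, 5, 2 and 2 of these were higher and 0, 0 and 2 lower, and the medians were 0.13, 0.14 and 0.08. The risers were the macroH2A genes: H2afy stood at 79.0 ± 12.3 TMM-scaled CPM in WT and at 165 ± 4.28, 164 ± 16.2 and 138 ± 6.54 in the knockouts, with log2 FC of 1.05, 1.05 and 0.79. H2afy2 had log2 FC of 1.05, 1.00 and 0.95. H2afx fell in the double knockout (-0.33), and H2afz, the most abundant per kb, was not called. Of 62 core histone genes named by cluster, 35 were tested against WT, with medians of 0.03, 0.11 and -0.07. By edgeR and by DESeq2, 0 of these were up in any knockout and 0, 0 and 1 down, beside the same shares of all genes. At an unadjusted p under 0.05, 1, 0 and 0 of these were higher and 2, 2 and 2 lower. Hist3h2a was the 1 that fell, with a log2 FC of -1.02, and Hist1h4i, the most abundant per kb at 11.5, was not called. Counts of the core histone genes named by cluster were low, which limits what could be called. Hist1h4i averaged 8.33 TMM-scaled CPM over all libraries.

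Marker genes of the labelled cell type and of other cell types were read in every library. The 10 mESC markers, all above 0 in each library, summed to 6272, 6472 and 6545 TMM-scaled CPM in WT and 6419, 6640.0 and 6918 in Hmgn1-/-. Their sum was 5960.2, 6481 and 7028 in Hmgn2-/- and 5864, 6495 and 6558 in the double knockout, so the knockouts overlapped WT. Of these markers 3, 1 and 2 rose and 1, 1 and 1 fell by edgeR, beside 7.28%, 3.30% and 7.79% of all genes called higher and 10.1%, 6.66% and 10.2% lower. By DESeq2 3, 2 and 2 rose and 1, 1 and 1 fell, at an unadjusted p under 0.05 there were 4, 3 and 3 higher and 2, 1 and 2 lower, and the medians were 0.06, -0.02 and -0.08. Klf4 rose in the double knockout (log2 FC 0.74), Nanog fell (-0.45), and Dppa5a was the most abundant per kb.

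Like H1f0 and H1fx, the summed primitive endoderm markers were higher in every knockout library than in every WT library. The 10 genes summed to 16.5, 18.2 and 18.7 TMM-scaled CPM in WT and 131, 102 and 107 in Hmgn1-/-. Their sum was 158, 137 and 100.1 in Hmgn2-/- and 326, 325 and 305 in the double knockout. Of these markers 8, 8 and 10 rose and 0 fell by edgeR and by DESeq2, beside 7.28%, 3.30% and 7.79% of all genes called higher. At an unadjusted p under 0.05, 10, 10 and 10 were higher and 0 lower, and the list had medians of 2.65, 2.95 and 4.19. Cubn, an endocytic receptor gene, was among those that rose in the double knockout (log2 FC 5.38), and Dab2 was the most abundant per kb. The sum in the double knockout was higher than in either single knockout, whereas H1f0 and H1fx overlapped between the 3 knockouts.

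Trophectoderm markers moved the other way. The 10 genes summed to 351, 398 and 543 TMM-scaled CPM in WT and 87.7, 84.4 and 115 in Hmgn1-/-. The sum was 119.8, 122 and 159.6 in Hmgn2-/- and 99.4, 113 and 126 in the double knockout. Of 9 tested, 0 rose and 7, 6 and 7 fell by edgeR and by DESeq2, beside 10.1%, 6.66% and 10.2% of all genes called lower. At an unadjusted p under 0.05, 0 were higher and 7, 7 and 8 lower, and the list had medians of -2.51, -1.93 and -2.11, among them Krt7 (-3.62) and Gata3 (-3.03) in the double knockout, and Krt8 was the most abundant per kb. Fibroblast markers summed to 25.0, 21.5 and 26.5 in WT, 9.57, 8.79 and 9.47 in Hmgn1-/-, 9.66, 10.1 and 9.93 in Hmgn2-/- and 8.46, 12.7 and 11.0 in the double knockout. Of these 10 genes Lum had 0 counts in all libraries. Of the 5 tested, 0 rose and 3 fell in each knockout by edgeR and by DESeq2, beside the same shares of all genes. At an unadjusted p under 0.05, 0 were higher and 4, 3 and 3 lower, and the list had medians of -1.63, -1.51 and -1.32, Col1a2 (-2.41) and Col1a1 (-1.81) furthest in the double knockout and Thy1 the most abundant per kb. The part of these cell type markers in the H1 results was not tested.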

How the data were processed

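The authors aligned poly-A RNA reads of each library to mm10 with STAR and deposited counts, whole numbers of reads per gene with no normalization; the counting program, its annotation and its strand setting are not given in the sources used here. Groups and replicate numbers came from the sample labels. The 4 tables were joined by gene name and fitted in R 4.3.3 with edgeR 4.0.16: TMM factors (0.970 to 1.02), the default filter on low counts, the quasi-likelihood test and Benjamini-Hochberg adjustment over all genes tested, with a call at an adjusted p under 0.01. Pairwise comparisons used the 6 libraries concerned, and the departure from additivity all 12. The tests were tested on simulated data.

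No libraries of a genotype were duplicates: the chi-square per gene between them ran from 3.40 to 36.4. Replicate numbers were checked for pairing by the correlation, across genes, of deviations from the group means. It was over 0.1 in every same-numbered pair of the double knockout and WT (0.208, 0.155 and 0.144), of the double knockout and Hmgn2-/- (0.470, 0.116 and 0.367) and of Hmgn2-/- and Hmgn1-/- (0.307, 0.149 and 0.316), so the numbers pair these libraries in the data, though no label says what they share. The study's methods name no block, so a replicate block was an alternative.

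The other alternatives were DESeq2 1.42.0 (Wald test), RLE and upper quartile factors, no filter on low counts, a minimum of 10 counts per library, a looser limit of 0.05 on the adjusted p, a fold limit, a single fit of all 12 libraries, each library left out in turn, CPM without TMM factors and the longest annotated transcript as length. Named genes were all 7 H1 genes, the edited genes, from each gene list the 2 called members with the largest log2 FC in the double knockout and the most abundant member, the nearest tested genes that are not histone genes, and the 3 genes most like each H1 gene with a mean of at least 50 counts. A gene that this rule names is not reported here. H1foo, H1fnt, Hils1, Hmgn5, H2afx and Lum fall outside that rule and were named after their values were seen. The H1 genes and the lists were chosen with earlier results of these data known. Positions and promoters came from RefSeq (GRCm38.p6), transcripts from GENCODE vM21.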

Additional observations from a re-analysis of the deposited data

Results flagged for a closer look

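The Hmgn1 transcript itself was lowered further in the double knockout against its parent than in Hmgn1-/- against WT. Hmgn1 was edited separately in these lines, so background and line cannot be told apart. Its departure from additivity was -2.63 on the log2 scale (SE 0.0991, adjusted p of 4.25e-10 by the edgeR quasi-likelihood test of the difference itself): the log2 FC was -2.16 between Hmgn1-/- and WT and -4.79 between the double knockout and its Hmgn2-/- parent. The mean level was 140 TMM-scaled CPM in Hmgn1-/- and 21.0 in the double knockout, with no overlap between their libraries. No H1 gene passed the limit in the same test, H1fx coming nearest with an adjusted p of 0.0142. Groups of 3 libraries were not tested for a library far from the others.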

How the results depend on the processing

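With a log2 FC of at least 1 in size, 0 H1 genes were called in each knockout against WT. For Hmgn2-/- against WT, the count of 1 became 0 with upper quartile factors, 0 with at least 10 counts in every library and 2 at an adjusted p under 0.05. For the departure from additivity, the count of 0 became 1 with DESeq2, 1 with no filter and 1 at an adjusted p under 0.05. With replicate number as a block, 0 were called for Hmgn2-/- against WT and 1 for the departure, and no other count of calls moved. In the comparisons where numbers did not pair by the rule, correlations of same-numbered libraries were 0.235, 0.0815 and 0.244 (Hmgn1-/- and WT), 0.112, 0.219 and 0.0648 (Hmgn2-/- and WT) and 0.249, 0.0579 and 0.309 (double knockout and Hmgn1-/-), each library matching its own number best except in the third pair of Hmgn2-/- and WT. Leaving out each library in turn gave 1 to 2 for Hmgn1-/- against WT, 0 to 1 for Hmgn2-/- against WT, 0 to 2 for the double knockout against WT, 0 to 1 for the departure and 0 to 0 in the other comparisons. Fewer libraries lower the power of a test, and otherwise the cause was not tested.

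With the longest annotated transcript as length, the summed H1 level per kb became 97.5 in WT, 131 in Hmgn1-/-, 127 in Hmgn2-/- and 126 in the double knockout, the same counts divided by other lengths. Leaving out a library gave 103 to 113 in WT, 142 to 151 in Hmgn1-/-, 137 to 144 in Hmgn2-/- and 137 to 142 in the double knockout.

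Of 660 log2 FC values of single H1 genes under alternatives, 638 kept their side of the limit, 17 were no longer past it, 5 were newly past it and 0 reversed a called direction. The log2 FC of H1f0 ranged over 0.40 to 0.57 in Hmgn1-/-, 0.28 to 0.47 in Hmgn2-/- and 0.37 to 0.55 in the double knockout, and that of H1fx over 0.38 to 0.54, 0.35 to 0.52 and 0.30 to 0.47. No scaling moved the median of all genes by 0.1 or more. Depth limits the clustered H1 genes, which had 3 to 179 counts per library.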
